A study of Homo sapiens with 7 samples.

Results

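MALAT1 and NEAT1 are neighbouring long noncoding RNA (lncRNA) genes on chromosome 11, and their transcripts stay in the nucleus. Both genes, with 10 kb on either side, were examined by ChIP-seq (chromatin immunoprecipitation and sequencing) of RNA polymerase II (Pol II) that carries phosphorylated threonine 4 in the repeat of its C-terminal domain (pThr4). The genes were taken by name from the RefSeq gene table of GRCh38, and are 2 of 59098 genes on chromosomes 1 to 22 and X and 2 of the 18177 lncRNA genes among them. NEAT1 (gene ID 283131) occupies chr11:65422798-65445540, which is 22743 bp, and MALAT1 (gene ID 378938) occupies chr11:65497738-65506516, which is 8779 bp. Both lie on the plus strand, with NEAT1 first, and 52197 bp separate the end of one from the start of the other.

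The chromatin came from HEK293, an established human embryonic kidney cell line, cultured alike for every library. Nuclear lysate was split, and one aliquot was treated in vitro with active SCP1 (SCP1 WT), a phosphatase that acts on serine 5 of the Pol II repeat, while its match received the catalytically inactive enzyme (SCP1 D96A). Both were then precipitated with the same pThr4 antibody, clone 6D7, and there were 3 biological replicates of each treatment. The comparison asks where pThr4 is detected only after phosphate on the adjacent serine 5 has been removed, and a control precipitation with IgG was not analysed here.

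Each library was deposited as its own list of broad peaks, with a fold enrichment over background and a −log10 p-value for every peak. On chromosomes 1 to 22 and X the SCP1 WT lists held 12625, 6680 and 36892 peaks, and the SCP1 D96A lists held 2466, 1163 and 2699. The number of peaks therefore differed between treatments across the genome. The lowest −log10 p-value that a list admitted was 3.08 to 3.79 with SCP1 WT and 4.2 to 4.6 with SCP1 D96A, so where an SCP1 D96A list lacks a peak, absence and a peak too weak for that list cannot be told apart. The lists hold no reads, the depth of each library is unknown, and fold enrichment is comparable within a list rather than between lists. A pThr4 peak marks modified Pol II on DNA without regard to strand and is not a level of either RNA.

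As background, MALAT1 RNA gathers in nuclear speckles, bodies rich in splicing factors. Its mature end is not made by polyadenylation. RNase P cuts the primary transcript just before a small tRNA-like RNA, mascRNA, RNase Z and a CCA-adding enzyme finish mascRNA, and a triple helix protects the new end of MALAT1. NEAT1 has 2 main forms that begin at the same start site. The short form ends at an ordinary polyadenylation site, whereas the long form runs through that site, is also cut by RNase P, and builds paraspeckles, nuclear bodies that hold RNA-binding proteins such as NONO and SFPQ. On Pol II, phosphorylated serine 5 is known for high levels near gene starts, and pThr4 has been linked to the region after gene ends.

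The sequences of these ends serve as landmarks for the peaks described below. They need not lie under a peak, and the short form end of NEAT1 lay under none. Of the 8 short NEAT1 transcripts in GENCODE 44, 6 ended between 3587 and 3715 bases after the start. The 80 bases printed, chr11:65426463-65426542 on GRCh38, plus strand, were cut around a copy of the polyadenylation signal AATAAA, in capitals. They therefore hold it by choice. This copy begins at base 3706 of NEAT1, past the lowest of the 6 ends. The same 6 letters occur 8 times in the whole of NEAT1, and 2.65% of its 80-base windows hold them on the transcribed strand (8.94% on either strand). These shares are no test of the printed stretch.
NEAT1 short form end: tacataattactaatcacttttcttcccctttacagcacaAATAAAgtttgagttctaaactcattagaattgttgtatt
The last 100 bases of the long form (chr11:65445441-65445540) and the 100 bases of MALAT1 before mascRNA (chr11:65506017-65506116) are shown because both are ends made by RNase P. They closed with the same 11 bases, in capitals.
NEAT1 long form end: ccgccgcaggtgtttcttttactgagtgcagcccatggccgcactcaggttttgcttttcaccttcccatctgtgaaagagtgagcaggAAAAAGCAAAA
MALAT1 before mascRNA: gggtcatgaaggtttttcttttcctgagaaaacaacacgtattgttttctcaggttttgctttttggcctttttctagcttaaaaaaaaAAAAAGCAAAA
mascRNA itself (chr11:65506117-65506174) is 58 bases long and starts 399 bases before the annotated MALAT1 end.
mascRNA: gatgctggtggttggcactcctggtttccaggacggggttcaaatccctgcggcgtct
The last 80 annotated bases of MALAT1 (chr11:65506437-65506516) lie past the RNase P cut and are shown because 4 of the 5 MALAT1 peaks begin after them. They hold 2 copies of AATAAA, in capitals. On the plus strand of the span of TALAM1, the antisense gene that covers most of MALAT1, 7.56% of 80-base windows hold this signal.
MALAT1 annotated end: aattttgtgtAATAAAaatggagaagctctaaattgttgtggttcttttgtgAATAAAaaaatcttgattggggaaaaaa

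The 6 lists placed 29 peaks in the windows around the genes, 24 at NEAT1 (14 with SCP1 WT, 10 with SCP1 D96A) and 5 at MALAT1 (3 and 2). No list had a peak in the 32197 bp between the windows. NEAT1 carried a peak in all 6 libraries, with pThr4 along the interior of the gene and the strongest peak lying across its end. MALAT1 carried a single site, just beyond its annotated end, in all 3 SCP1 WT libraries and 2 of 3 SCP1 D96A libraries. Neither gene had a peak within 1 kb of its start in any library. The lack of a start peak was the common case over all genes, as 86.3% of the 47058 genes with a known strand had none within 1 kb of the start in any library. Most genes had no peak anywhere, 69.4% of all 59098 having none in or within 1 kb of the gene. The share among genes with peaks was not computed.

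**Figure D1:**
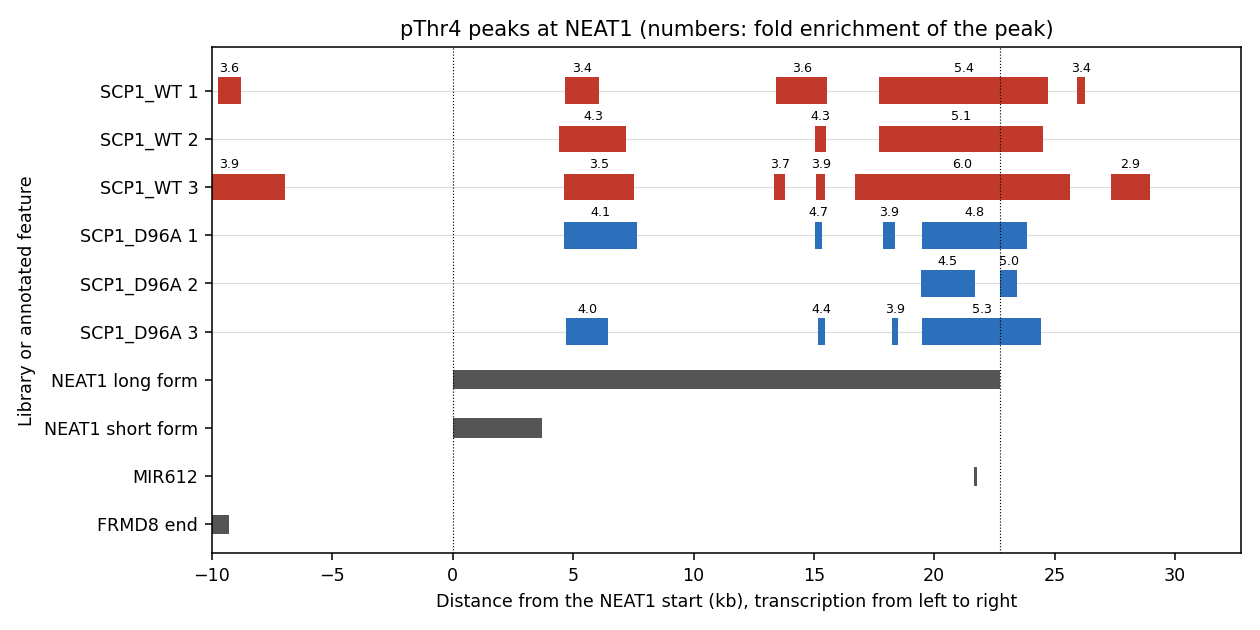
Peaks at NEAT1 in each library, drawn by distance from the gene start in kb, with the fold enrichment printed above each peak and the annotated features below. Bars are peaks, red for SCP1 WT and blue for SCP1 D96A, and dotted lines mark the gene start and end. A peak overlies the gene end in all 6 libraries, and none lies at the start.

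NEAT1 was overlapped by a peak in all 6 libraries, which held for 1.19% of all genes (706 of 59098), for 0.49% of lncRNA genes and for 0.526% of the 4753 lncRNA genes at least as long as NEAT1. Of the 89 lncRNA genes with a peak in all 6 libraries, NEAT1 stood 20th when ordered by the weakest library's strongest −log10 p-value. Most of those 89 genes lie beside a coding gene. The 9 that do not come within 1 kb of one included NEAT1, the third of them in the same order.

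The first site inside NEAT1 lay 4432 to 7672 bases after the start, beyond the end of the short form (chr11:65427230-65430470). With SCP1 WT the peak was 1393 bp wide with a fold enrichment of 3.39 in replicate 1, 2783 bp wide with 4.32 in replicate 2 and 2925 bp wide with 3.52 in replicate 3. With SCP1 D96A it was 3046 bp with 4.11 in replicate 1 and 1769 bp with 4.02 in replicate 3, and replicate 2, the shortest list, had no peak here. The widths of the treatments overlapped. The 5 peaks began 717 to 977 bases after the most distal end of the short form, a narrow range beside the widths of the peaks. All 5 shared the stretch chr11:65427490-65428869 of 1380 bp, which starts 987 bases after the AATAAA shown above. This site was not among the strongest of its lists, with its −log10 p-value at percentiles of 29.1, 82.1 and 76.7 of the SCP1 WT lists and 53.7 and 45.0 of the SCP1 D96A lists.

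The second site inside NEAT1, 13352 to 15555 bases after the start (chr11:65436150-65438353), held short peaks. In SCP1 WT replicate 1 a single peak of 2133 bp had a fold enrichment of 3.59, in replicate 2 a peak of 443 bp had 4.31, and replicate 3 had 2 peaks of 457 and 396 bp with 3.71 and 3.93. In SCP1 D96A replicates 1 and 3 the peaks were 286 and 277 bp wide, with fold enrichments of 4.72 and 4.37, and replicate 2 again had none. The SCP1 D96A peaks were narrower than each SCP1 WT peak. Bases under a peak were 1143 ± 882 with SCP1 WT and 188 ± 163 with SCP1 D96A (SD, n = 3 each; exact permutation p = 0.1, the smallest that 3 against 3 libraries allow). For whole genes a separation of the treatments in this direction was common. Of the 16030 genes with a peak in any library, 20.9% were covered more in each SCP1 WT library than in each SCP1 D96A library. No such share was computed for single sites. The 177 bases that 5 libraries shared are printed here as the narrowest shared interval of the gene, chr11:65437962-65438138, GRCh38, plus strand.
NEAT1 interior site, shared bases: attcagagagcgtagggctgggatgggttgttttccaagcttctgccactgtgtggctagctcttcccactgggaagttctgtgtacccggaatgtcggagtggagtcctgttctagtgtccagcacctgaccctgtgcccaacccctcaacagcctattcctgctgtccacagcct
None of the 24-base words of this stretch or of the shared bases of the first interior site occurred again on chromosome 11 of GRCh37. Their GC content was 55.9% and 46.4%, against 44.1% over the whole of NEAT1.

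The strongest NEAT1 site lay across the gene end (chr11:65439497-65448439). With SCP1 WT it was 1 unbroken peak in each library, 7014, 6794 and 8943 bp wide. It began 5026, 5027 and 6043 bases before the end of the gene and ran 1987, 1766 and 2899 bases past it. The starts of replicates 1 and 2 differed by 1 base. The fold enrichments were 5.36, 5.14 and 5.96, and the −log10 p-values were 9.16, 8.54 and 10.98, which placed the peak at percentiles 97.1, 95.2 and 99.2 of its own list. These were the strongest and the widest peaks of either gene in all 3 SCP1 WT libraries.

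With SCP1 D96A the same site was broken into 2 peaks in every library. Replicate 1 had a peak of 507 bp (fold enrichment 3.88) and, after a gap of 1095 bp, one of 4381 bp (4.76). Replicate 2 had 2258 bp (4.54) and 731 bp (4.97) with 1028 bp between them, and replicate 3 had 242 bp (3.85) and 4930 bp (5.31) with 1008 bp between them. The gap lay within the gene in all 3, but toward the beginning of the site in replicates 1 and 3 and close to the gene end in replicate 2. The SCP1 D96A lists admitted only stronger peaks than the SCP1 WT lists. A true break and a stretch too weak for the list therefore cannot be told apart. How often other wide peaks were split in this way was not computed. The stronger peak of each pair reached −log10 p-values of 7.17, 7.91 and 8.44, at percentiles 84.5, 84.9 and 91.6 of its list.

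Both treatments thus kept a peak over the last base of NEAT1 in 6 of 6 libraries, which held for 0.419% of the 47058 genes with a known strand. Bases under a peak at this site numbered 7584 ± 1182 with SCP1 WT and 4350 ± 1187 with SCP1 D96A (SD, n = 3 each), without overlap between treatments (exact permutation p = 0.1). For whole genes with a peak in any library, 20.9% separated in this direction, and no such share was computed for single sites. The SCP1 WT lists were also longer, and what list length adds here was not tested. Over NEAT1 and its 10 kb flanks, the 6 libraries had 2919 bases under a peak in common. In the same window 142 bases were under an SCP1 D96A peak and no SCP1 WT peak, and 1208 were under a peak in all 3 SCP1 WT and no SCP1 D96A libraries. Of the 19387 bases under a peak in at least 1 library, 5729 were in SCP1 WT replicate 3 alone, the longest list.

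MIR612, a microRNA gene of 100 bp inside the end of NEAT1 (chr11:65444458-65444557), was wholly under the peak in 5 libraries and to 34% in SCP1 D96A replicate 2. The last AATAAA of NEAT1 lay 5039 bases before the end of the long form, close to where the end peaks of SCP1 WT replicates 1 and 2 began. The site began 6043 bases before the end in SCP1 WT replicate 3. With SCP1 D96A it began 4867, 3306 and 4486 bases before the end. A link between this signal and the peaks was not tested. In the longest stretch of the end site under a peak in every library (chr11:65442304-65444491), 13.1% of 24-base words occurred more than once on chromosome 11 of GRCh37, against 5.69% over the whole gene. Whether read placement in repeats shaped the peaks was not tested.

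**Figure D2:**
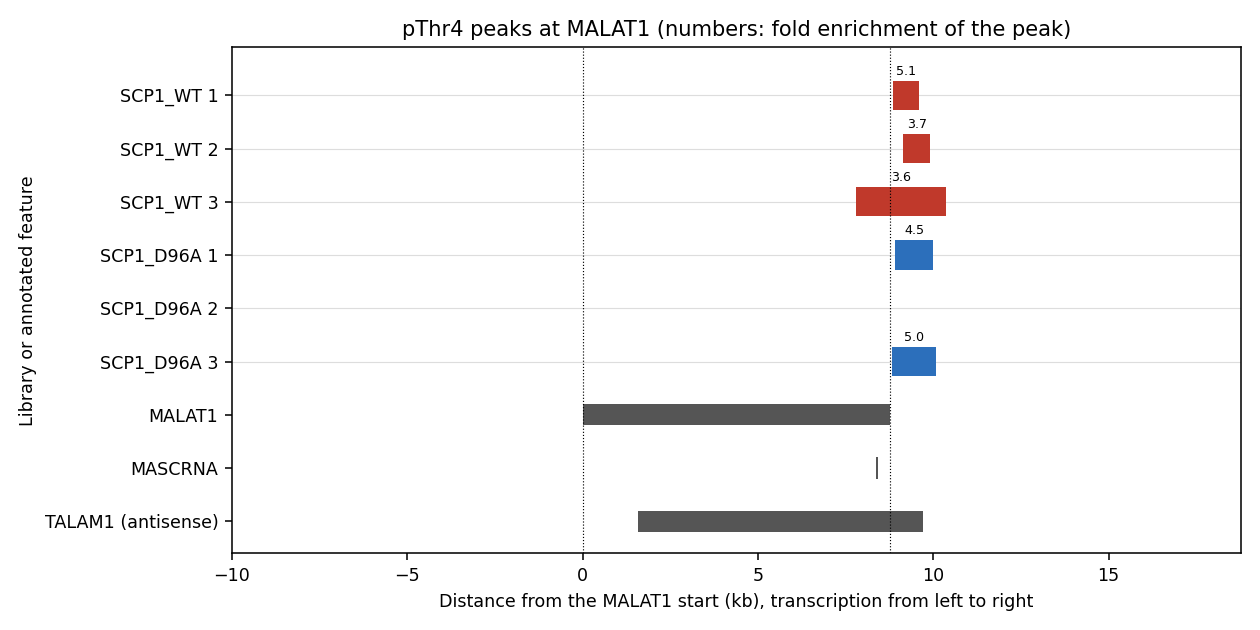
Peaks at MALAT1 in each library, drawn by distance from the gene start in kb, with the fold enrichment above each peak and MALAT1, mascRNA and the antisense gene TALAM1 below. Bars are peaks, red for SCP1 WT and blue for SCP1 D96A, and dotted lines mark the gene start and end. The peaks sit just after the gene end in 5 libraries, and 1 of them reaches back over it.

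At MALAT1 the single site began after the annotated gene end in 4 of the 5 libraries that had it. With SCP1 WT, replicate 1 had a peak of 740 bp, 68 to 807 bases after the end (chr11:65506584-65507323), with a fold enrichment of 5.11 and a −log10 p-value of 8.30. Replicate 2 had a peak of 769 bp, 367 to 1135 bases after the end (chr11:65506883-65507651), with 3.68 and 4.88. Replicate 3 had a peak of 2565 bp that started 967 bases before the end and reached 1597 bases past it (chr11:65505549-65508113), with 3.57 and 4.56. This last peak was the only one to overlap MALAT1, covering 11.03% of the gene, and the only one to cover mascRNA. It came from the list that admitted the weakest peaks.

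With SCP1 D96A, replicate 1 had a peak of 1064 bp, 142 to 1205 bases after the end (chr11:65506658-65507721), with a fold enrichment of 4.54 and a −log10 p-value of 6.57. Replicate 3 had a peak of 1244 bp, 59 to 1302 bases after the end (chr11:65506575-65507818), with 4.98 and 7.48, and replicate 2 had none. The median fold enrichment of a whole list was 3.11 to 3.53 with SCP1 WT and 3.84 to 3.89 with SCP1 D96A, so the values at MALAT1 were not compared between treatments. Within their lists the peaks stood at percentiles 95.99, 54.1 and 79.2 with SCP1 WT and 77.3 and 87.4 with SCP1 D96A, which overlapped.

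A peak in the 10 kb after the gene end in at least 5 libraries, as at MALAT1, was found for 4.61% of the 47058 genes with a known strand and for 1.07% of the 12805 such lncRNA genes. The 5 libraries shared 441 bp, 367 to 807 bases after the MALAT1 end. Of the 24-base words in these 441 bases, 21.1% were found more than once on chromosome 11 of GRCh37, and the most frequent one occurred 2714 times on that chromosome. Over the TALAM1 span as a whole 1.51% recurred, so the shared bases were richer in repeats than their surroundings. The part that repeats play in these peaks was not tested.

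The place of the MALAT1 site depends on the annotation. TALAM1 (chr11:65499312-65507432, minus strand), the RNA antisense to MALAT1, reaches 916 bases past the MALAT1 end, and each of the 5 peaks overlapped it, for 6.77% to 23.2% of its length. All 5 came within 1 kb of the TALAM1 start, and the shared bases lay 109 to 549 bases into TALAM1. A GENCODE model of MALAT1, 10434 bases long, runs 1557 bases past the RefSeq end and holds the far ends of 4 of the 5 peaks. ChIP-seq does not separate the strands, so Pol II that transcribes MALAT1 and passes its end cannot be told apart from Pol II near the start of TALAM1.

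**Figure D3:**
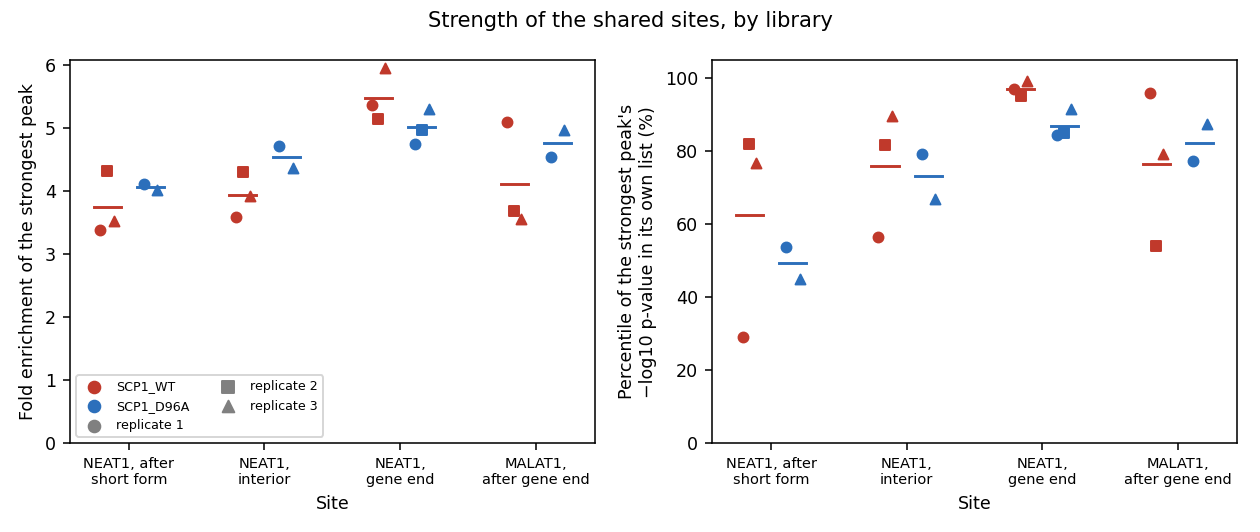
Fold enrichment (left) and percentile of the −log10 p-value within its own list (right) of the strongest peak at the 4 sites found in at least 5 libraries. Points are libraries, with the shape giving the replicate, and lines are group means. Within each of the 6 libraries the NEAT1 end had the highest fold enrichment of these sites, from 4.76 to 5.96.

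The sides of each gene were compared next. At NEAT1 the 10 kb after the end were covered for 22.9%, 17.7% and 45.5% with SCP1 WT and 11.2%, 7.10% and 16.9% with SCP1 D96A. The 10 kb before the start were covered for 9.63%, 0% and 30.4% with SCP1 WT and not at all with SCP1 D96A. The side after the end had the higher share in 6 of 6 libraries, by 13.5 ± 3.95 percentage points (SD, n = 6; two-sided exact sign-flip permutation test, p = 0.031, the smallest that 6 libraries allow, adjusted p = 0.0469 over the 3 comparisons of this kind). The libraries came from split lysates, and with the replicate number as a block the same difference had an exact sign-flip p of 0.25, the smallest that 3 pairs allow, as did the contrast of the genes given below. The upstream coverage belonged to a peak in SCP1 WT replicates 1 and 3 (963 and 4661 bp, fold enrichment 3.64 and 3.92) that overlay the end of the coding gene FRMD8 and stopped 8796 and 6958 bases short of NEAT1. Beyond the end peak, SCP1 WT replicate 1 had a further peak of 306 bp (fold enrichment 3.36) and replicate 3 had one of 1650 bp (2.93), both in the weaker part of their lists and found in no other library.

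At MALAT1 the 10 kb after the end were covered for 7.40%, 7.69% and 16.0% with SCP1 WT and 10.6%, 0% and 12.4% with SCP1 D96A, and no library had a peak in the 10 kb before the start. The difference between the sides was 9.02 ± 5.45 percentage points (SD, n = 6), above 0 in 5 of 6 libraries, and did not pass 0.05 (exact sign-flip permutation test, p = 0.0625). Within the genes the members differed. MALAT1 was covered less than NEAT1 in 6 of 6 libraries, by -28.6 ± 10.2 percentage points (SD, n = 6; exact sign-flip permutation test, p = 0.031, adjusted p = 0.0469 over the 3 comparisons).

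**Figure D4:**
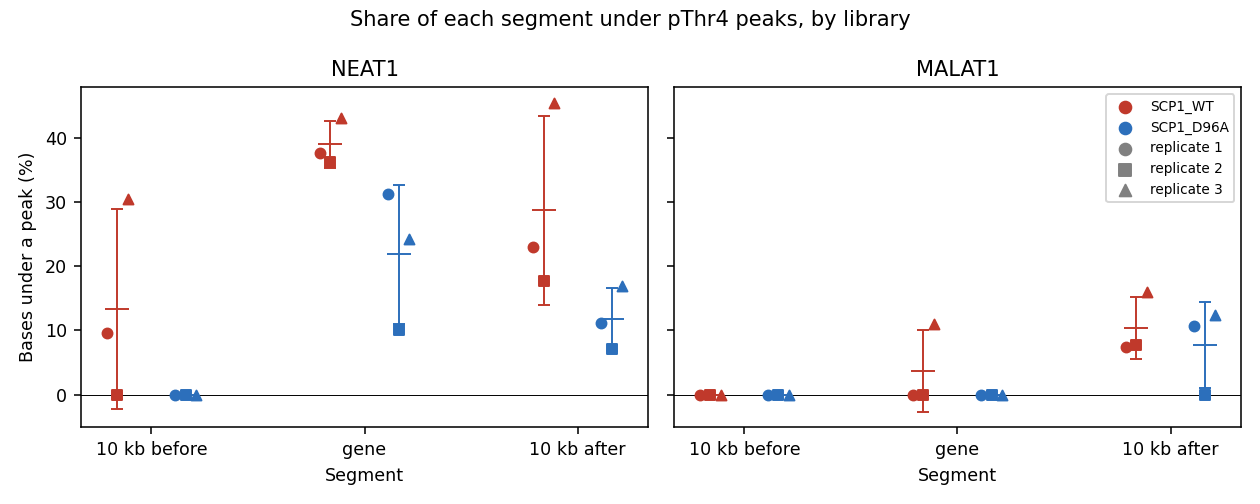
Percent of bases under a peak in the 10 kb before each gene, in the gene and in the 10 kb after it. Points are libraries, with the shape giving the replicate, horizontal ticks are means and bars are 1 SD (n = 3). NEAT1 itself was covered for 36.3% to 43.2% with SCP1 WT and 10.0% to 31.2% with SCP1 D96A, while MALAT1 stayed at 0% except in SCP1 WT replicate 3.

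Active and inactive SCP1 were then compared across both genes. NEAT1 was covered for 37.6%, 36.3% and 43.2% with SCP1 WT and for 31.2%, 10.0% and 24.3% with SCP1 D96A. The lowest SCP1 WT library was above the highest SCP1 D96A library. The means were 39.0% ± 3.66 and 21.9% ± 10.8 (SD, n = 3 each), so SCP1 WT was higher by 17.2 percentage points (p = 0.1 by exact permutation, adjusted p = 0.333 over 10 differences). The same separation was found for 20.9% of the genes with a peak, as given above, so NEAT1 shared it with many. With the replicate number as a block, the NEAT1 gene difference had an exact sign-flip p of 0.25, the smallest that 3 pairs allow. The same p-value was found for the 10 kb after NEAT1 and for the percentile of its strongest peak, both given below. Without SCP1 D96A replicate 2 the gene difference was 11.3. When every list was cut to its 1163 strongest peaks, the length of the shortest list, the difference was 5.43 percentage points (exact permutation p = 0.5). It was 15.03 when all lists were held to a −log10 p-value of at least 6 (exact permutation p = 0.1) and 11.4 with a −log10 q-value no lower than 2 in all lists (p = 0.2 by exact permutation).

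The 10 kb after NEAT1 also separated the treatments, 28.7% ± 14.8 against 11.7% ± 4.94 (SD, n = 3 each; 17.0 percentage points higher, exact permutation p = 0.1, adjusted p = 0.333), as did 26.4% of the 14100 genes with a strand and a peak there. The difference was 8.57 percentage points without SCP1 WT replicate 3 and 10.4 with lists of equal length (exact permutation p = 0.1). The percentile of the strongest NEAT1 peak was higher in each SCP1 WT library, by 10.2 points on average (exact permutation p = 0.1, adjusted p = 0.333), as it was for 71.6% of the 2274 genes with a peak in or within 10 kb of the gene in all 6 libraries. With lists of equal length this difference turned to -5.59 points (exact permutation p = 0.4). The number of peaks, 5, 3 and 6 against 4, 2 and 4, overlapped (exact permutation p = 0.4).

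For MALAT1 none of these measures separated the treatments. The difference in the 10 kb after the end was 2.66 percentage points (exact permutation p = 0.6), and it turned to -5.23 when the lists were made equally long or held to a common −log10 p-value of at least 6. The share of the gene covered differed by 3.68 percentage points (exact permutation p = 1), all of it from SCP1 WT replicate 3, without which it was 0. The site was therefore seen after treatment with either enzyme, and with 3 libraries of each a difference between them was not detectable.

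Of the 9 RefSeq genes that overlap the windows, the pseudogenes FAUP4 and SNRPGP19 and the lncRNA gene LINC02736 had no peak in any library. FRMD8 was covered for 1.07% and 6.45% in SCP1 WT replicates 1 and 3. Farther out, 11 coding genes lie within 100 kb, of which none had a peak in or within 1 kb of it in all 6 libraries and only SLC25A45 had none at all. LTBP3, ZNRD2 and the kinase gene MAP3K11 each had a peak in 3 of 3 SCP1 WT and 0 of 3 SCP1 D96A libraries. DPF2 and TIGD3 had 3 and 1, FAM89B had 3 and 2, EHBP1L1 had 2 and 2, and KCNK7 had 2 and 0. A peak in all 3 SCP1 WT and no SCP1 D96A libraries was found in or near 7.38% of the 19974 coding genes. Among the genes of the windows and these neighbours, only NEAT1 and MIR612 within it had a peak in every library.

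Among 9 other well-known lncRNA genes, none had a peak in or within 1 kb of the gene in all 6 libraries. HOTAIR, an RNA from the HOXC cluster, had one in 3 SCP1 WT and no SCP1 D96A libraries. NORAD had one in 3 SCP1 WT and 2 SCP1 D96A libraries, as many as had the site at MALAT1. XIST was not on this list. It was overlapped by a peak in all 6 libraries and stood 2nd of the 89 such lncRNA genes ordered above. Of the 9 genes, 6 had a peak in more SCP1 WT than SCP1 D96A libraries, 0 had the reverse and 3 had no peak. Of all 59098 genes, 16631 had a peak in more SCP1 WT libraries, 83 had the reverse and 69.4% had no peak. Among all lncRNA genes 0.644% had a peak in all 6 libraries, and 1.28% had one in all 3 SCP1 WT and no SCP1 D96A libraries.

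Genes whose products meet these RNAs were counted against all coding genes, of which 4.86% had a peak in or within 1 kb of the gene in all 6 libraries. Of 20 genes for paraspeckle proteins, 8 (40%) had such a peak. They were NONO and SFPQ, partners in the core of the paraspeckle, the RNA-binding proteins DAZAP1, TARDBP, EWSR1, TAF15 and RBMX, and UBAP2L. SMARCA4, a chromatin-remodelling ATPase, had a peak in 3 SCP1 WT and no SCP1 D96A libraries, and 2 genes had none. At SFPQ the fold enrichments were 5.74, 5.75 and 6.09 with SCP1 WT and 4.90, 4.6 and 5.83 with SCP1 D96A. At NONO they were 3.86, 5.02 and 4.28 with SCP1 WT and 3.31, 3.16 and 3.72 with SCP1 D96A. At DAZAP1 the order was the reverse, with the higher value in SCP1 D96A for every replicate number. Fold enrichment is not comparable between lists, so no difference between treatments is drawn from these values. Of 20 genes for MALAT1 processing and nuclear speckles, 5 (25%) had a peak in all 6 libraries. These were POP4 and POP5, subunits of RNase P, SRRM2, a scaffold of the speckle, and the splicing factors SRSF1 and SRSF3. METTL16, which binds the MALAT1 triple helix, had a peak only in the 3 SCP1 WT libraries, and 5 genes had none. These lists were chosen with earlier results known, so their shares are a description. The coding genes set beside them include 39.6% with no peak in any library, and expression was not matched.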

How the data were processed

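The authors deposited 1 broad-peak list (MACS layout) per library. Per the labels the build was hg38, and the submitters' processing notes name FastQC, cutadapt 4.6 and Bowtie2 2.5.2. The caller's version, filters and control are not given in the sources used here. The deposited fold enrichment is a ratio over background, averaged over the peak, and the deposited −log10 p-values and −log10 q-values come from the caller. The lowest −log10 q-value was just above 1 in each list. The deposited score was not used.

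Gene positions came from the RefSeq table of GRCh38, and strand, by name and chromosome, from RefSeq promoter entries and GENCODE 44 (79.6% of genes, 70.4% of lncRNA genes). Sequences were read from GENCODE 44 transcripts after their lengths and spacing matched the RefSeq positions. An overlap of at least 1 bp counted. Overlapping peaks at a gene formed a site, and percentiles order a peak by −log10 p-value within its list. Groups were compared by two-sided exact permutation over the 20 assignments of 3 and 3 libraries, and contrasts within lists by exact sign flips, with Benjamini-Hochberg adjustment, in Python 3.11.15 with numpy 2.4.6. The overlap and test code was tested on simulated data. Alternatives were q-values with −log10 of at least 2, a common −log10 p-value of at least 6, lists of 1163 peaks, peaks closer than 500 bp joined, flanks of 5 kb, a replicate block, replicates 1 and 2 alone (peak names carry the number 10 there and 5 in replicate 3, with no meaning given), and each library left out. Genes were named by rule, namely the members, all genes in their windows, coding genes within 100 kb, members of 3 fixed lists with a peak in all 6 or in 3 SCP1 WT and no SCP1 D96A libraries, and the 5 genes of at least 2 kb most like each member. XIST and NORAD were named outside this rule. The members and lists were chosen with earlier results of these data known. No methods section describing these libraries was used. Of the 10 lncRNA genes listed, 9 matched the gene table. The values of 1 neighbouring gene and the sequence of 1 shared stretch are not reported here.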

Additional observations from a re-analysis of the deposited data

How the results depend on the processing

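Over 186 recomputed values, 27 became 0 or lost an exact sign-flip p below 0.05, 11 changed sign and 8 counts moved by more than 1.5 times. Size alone did not decide this. The NEAT1 contrast of sides rose from 13.5 to 14.8 without SCP1 D96A replicate 2 and is among the 27. The NEAT1 gene difference fell from 17.2 to 5.43 with lists of equal number and is not. The other 140 include comparisons of 3 against 3 libraries, which cannot go below p = 0.1 by exact permutation and so could not cross 0.05, and the MALAT1 upstream flank, which was at 0 throughout. A common −log10 p-value and lists of equal number gave 0 for the MALAT1 gene difference and for the NEAT1 upstream difference, -5.23 for the MALAT1 downstream difference and -0.333 for its number of peaks. The number of NEAT1 peaks then differed by 0 and -1.33 (exact permutation p = 0.1), and the NEAT1 percentile by -5.59 with equal number. Under the common p-value the MALAT1 percentile differed by 24.4, a value that rests on 1 SCP1 WT library against 2 SCP1 D96A libraries. The MALAT1 peak number differed by 0 at the stricter q-value, the NEAT1 upstream flank by 0 at 5 kb and the MALAT1 gene by 0 within replicates 1 and 2. The causes were not tested. The NEAT1 contrast of the sides of the gene was 11.9 at the stricter q-value (exact sign-flip p = 0.0625) and 12.3 within replicates 1 and 2 (p = 0.125), and the contrast of MALAT1 with NEAT1 was -28.8 there. These p-values and those with a library left out (0.0625) are the smallest that so few libraries allow, apart from the stricter q-value. With the replicate block the contrasts were 13.5 and -28.6 (exact sign-flip p = 0.25, the smallest for 3 pairs) and the MALAT1 percentile difference was 5.23. Same-numbered libraries correlated by -0.0036, 0.082 and 0.032 over 16030 genes, so the numbers were not shown to pair the lists. With each library left out in turn, differences ran from 0 to 5.51 for the MALAT1 gene, 11.3 (without SCP1 D96A replicate 2) to 21.9 for the NEAT1 gene, 4.82 to 20.03 for NEAT1 upstream, -1.19 to 5.03 for MALAT1 downstream, 8.57 (without SCP1 WT replicate 3) to 22.5 for NEAT1 downstream, 0 to 0.5 and 0.667 to 2.17 for the numbers of peaks at MALAT1 and NEAT1, and -15.7 to 5.23 and 8.95 to 12.5 for their percentiles. The contrasts ran from 7.63 to 10.8 for the sides of MALAT1, 12.7 to 14.8 for those of NEAT1, and -32.3 to -26.8 for MALAT1 against NEAT1. Genes with a peak in all 3 SCP1 WT and no SCP1 D96A libraries numbered 1725, and 858, 292 and 146 under the stricter q-value, the common p-value and equal number, or 1762 to 4326 (without SCP1 WT replicate 2) with a library left out. Genes with a peak in all 6 numbered 706, then 401, 327 and 429, or 707 to 1317 (without SCP1 D96A replicate 2).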

Other observations

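The genes whose share of length under a peak was most like that of NEAT1 over the 6 libraries were HOXB9, ZNF687, ERP29, ARRDC1 and COG8, all protein-coding, with root mean square differences of 5.63 to 6.20 percentage points. HOXB9, a homeobox transcription factor gene, was covered for 37.1%, 24.8% and 39.8% with SCP1 WT and 24.8%, 11.01% and 22.6% with SCP1 D96A. ZNF687, a zinc finger gene, was covered for 45.1%, 35.6% and 48.9% against 30.2%, 10.5% and 13.9%. In these genes, as in NEAT1, SCP1 D96A replicate 2 had the lowest share, and it is also the shortest list.

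For MALAT1 the same measure rests on 1 library, SCP1 WT replicate 3, as the gene had no covered base in the others. The nearest genes were LOC105376363, HOXA13, LOC400541, ZNF764 and LOC107986985, covered for 11.01% to 11.04% in that library and 0% elsewhere.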
